A study of Rattus norvegicus with 12 samples.

Results

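The 9 genes studied here belong to the dual-specificity MAPK phosphatase family and were read in rat pituitary cultures enriched for gonadotropes, by the symbols Dusp1, Dusp2, Dusp4, Dusp5, Dusp6, Dusp8, Dusp10, Dusp14 and Dusp16. A probe set was taken when the platform annotation gave it exactly 1 gene symbol and that symbol was a member. This gave 11 probe sets out of 31042 that were not array controls, for 8 of the 9 genes, among 14217 genes read this way on the array. Dusp16 had no such probe set and was not analysed here. Dusp1 was read by 2 probe sets, Dusp6 by 3 and each of the other 6 genes by 1.

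The GnRH samples were cells given 10 nM gonadotropin-releasing hormone (GnRH) for 40 min on day 3 of culture, and the vehicle samples received an equal volume of medium for the same time. Both came from anterior pituitaries of adult female Sprague-Dawley rats, ovariectomized 2 weeks earlier, with 13 to 15 glands pooled per experiment. Large cells were collected by sedimentation and grown with 0.2 nM estradiol and 10% charcoal-treated serum; 40 to 60% of them stained for luteinizing hormone (LH), so the arrays also carry RNA of other pituitary cells. There were 6 GnRH and 6 vehicle arrays from 3 separate cell preparations (enrichment set I, set II and set III), with 2 arrays of each agent per set (samples 1 and 2 in set I, 3 and 4 in set II, 5 and 6 in set III).

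Dual-specificity MAPK phosphatases switch off the mitogen-activated protein kinases (MAPKs) ERK, JNK and p38 by removing phosphate from both the threonine and the tyrosine of the activation loop. Several of them are induced by the pathway they inhibit and so form a negative feedback loop. The GnRH receptor of gonadotropes signals through Gq, protein kinase C and calcium to the MAPKs, which act on the gonadotropin subunit genes. Dusp1, Dusp2, Dusp4 and Dusp5 encode inducible nuclear enzymes, and the Dusp5 product prefers ERK. The Dusp6 product is a cytoplasmic ERK phosphatase. Dusp8, Dusp10 and Dusp16 encode enzymes that favour JNK and p38, and Dusp14 encodes a small family member that lacks the kinase-binding domain.

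Promoters of 8 of the 9 genes were in the RefSeq promoter table of rat assembly GRCr8. Dusp4 had no entry. The 250 bases before each start were searched on both strands for the cAMP response element (CRE) TGACGTCA, its core TGACG, the AP-1 site TGANTCA, the E-box CACGTG and the serum response factor's CArG box. The full CRE was found in Dusp1 alone among these members, at -124 to -117 from the start, and in 1.59% of all 33365 promoters of that length. The core, which also lies within every full CRE, was found in Dusp1, Dusp2, Dusp5, Dusp16 and before 1 of the 3 starts of Dusp14. It was found in 18.2% of all promoters. The CArG box was found in Dusp5 alone among them, as a pair of adjoining copies at -82 to -63 from the start, and in 1.50% of all. The AP-1 site was found before 1 of the 3 starts of Dusp14 and in 6.35% of all promoters, and the E-box in Dusp1 and Dusp2 and in 5.60% of all. A match is a description of the letters and not a site shown to be used.

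The sequences of Dusp1 and Dusp5 are shown because they hold the rarest of these motifs. Each is the 180 bases before the start on the plus strand of GRCr8, from chr10:17184673-17184852 for Dusp1 and chr1:262543594-262543773 for Dusp5. Capitals mark the CRE, its core and the CArG boxes.
Dusp1: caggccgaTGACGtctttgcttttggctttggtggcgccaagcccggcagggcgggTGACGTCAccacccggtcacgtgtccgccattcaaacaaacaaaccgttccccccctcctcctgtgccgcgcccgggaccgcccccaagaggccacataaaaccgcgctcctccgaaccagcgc
Dusp5: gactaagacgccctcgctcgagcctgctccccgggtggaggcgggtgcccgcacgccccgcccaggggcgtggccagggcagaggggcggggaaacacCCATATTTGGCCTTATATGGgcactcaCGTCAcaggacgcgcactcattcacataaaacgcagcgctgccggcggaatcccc

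The deposited values are probe set signals on a linear scale. Each array was scaled here to a trimmed mean of 500. Differences are GnRH minus vehicle on the log2(signal + 16) scale, so a fold change understates that of a dim gene. The arrays were not alike. Bacterial hybridisation controls had a geometric mean signal of 2264 to 11705 on 5 arrays, all 4 of set I and vehicle 5. On the other 7 it was 53482 to 320024. The geometric mean of 27 background control probe sets (other bacterial controls) was 14.8 to 22.4 on the 5 arrays and 52.8 to 183 on the 7. Vehicle 3 stood apart: its Spearman correlations with the 11 others had a median of 0.38, where those medians lay at 0.62 to 0.71 for the rest. The highest correlation of an array with any other was 0.91 to 0.94 for the 5 arrays and 0.40 to 0.74 for the 7. Vehicle 5, of set III, was thus most like an array of set I, which the set term does not remove. Markers of gonadotropes were detected, with Lhb, Cga and Scg2 above every background control on all 12 arrays, while the GnRH receptor gene Gnrhr exceeded the median background control on 7 of 12. The summed signal of the 7 gonadotrope markers ran from 87006 to 509719 in GnRH and from 40936 to 478673 in vehicle samples. Growth hormone and prolactin genes were also above every background control on all 12 arrays. The spike-in level differs between the sets and splits set III, and its part in the results was tested only as a covariate in the fit. The part of other cell types was not tested.

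The comparison of GnRH with vehicle asked whether these feedback phosphatases had changed in level by 40 min. No member passed the test: 0 of the 8 probe sets bright enough to be tested had a limma adjusted p under 0.05, against 0.00537% of the 18625 probe sets tested (1, the AP-1 subunit gene Fosb, higher in GnRH; its call depended on the settings, as given with the immediate early genes). At an unadjusted p under 0.05 the count was also 0 of 8 by limma and by the exact within-set permutation test, against 3.45% and 4.46% of all tested probe sets. The measured means nevertheless lay mostly on one side. Of 6 genes tested, each by its brightest probe set, 6 had a higher mean in GnRH samples, against 54.6% of 10680 genes, and by probe set it was 7 of 8 against 53.6%. The 2 genes under the filter, Dusp4 and Dusp8, had lower means in GnRH, so the tally with them was 6 of 8 genes and 8 of 11 probe sets. Dusp6 entered by the largest of its 3 differences, 0.59, where its other probe sets gave 0.13 and -0.18. The 6 log2 differences were 0.44 to 0.63 with a median of 0.52, beside a median of 0.04 over all tested genes. Summed marker signals of some cell types differed by as much. The log2 difference was 0.80 for gonadotropes, 0.56 for somatotropes and lactotropes and 0.43 for folliculostellate and stem cells. It was -0.21 for fibroblasts and pericytes and -0.19 for leukocytes. Single markers went both ways: 5 of 7 gonadotrope markers were higher, but Nr5a1 was at -1.15 and Foxl2 at -0.67. Of the 5 folliculostellate and stem cell markers 3 were higher, but S100b was at -0.84 and Aldh1a2 at -0.80. The part of these cell types in the members' values was not tested. In samples of mixed cells, fewer cells of a type and less RNA per cell cannot be told apart.

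**Figure D1:**
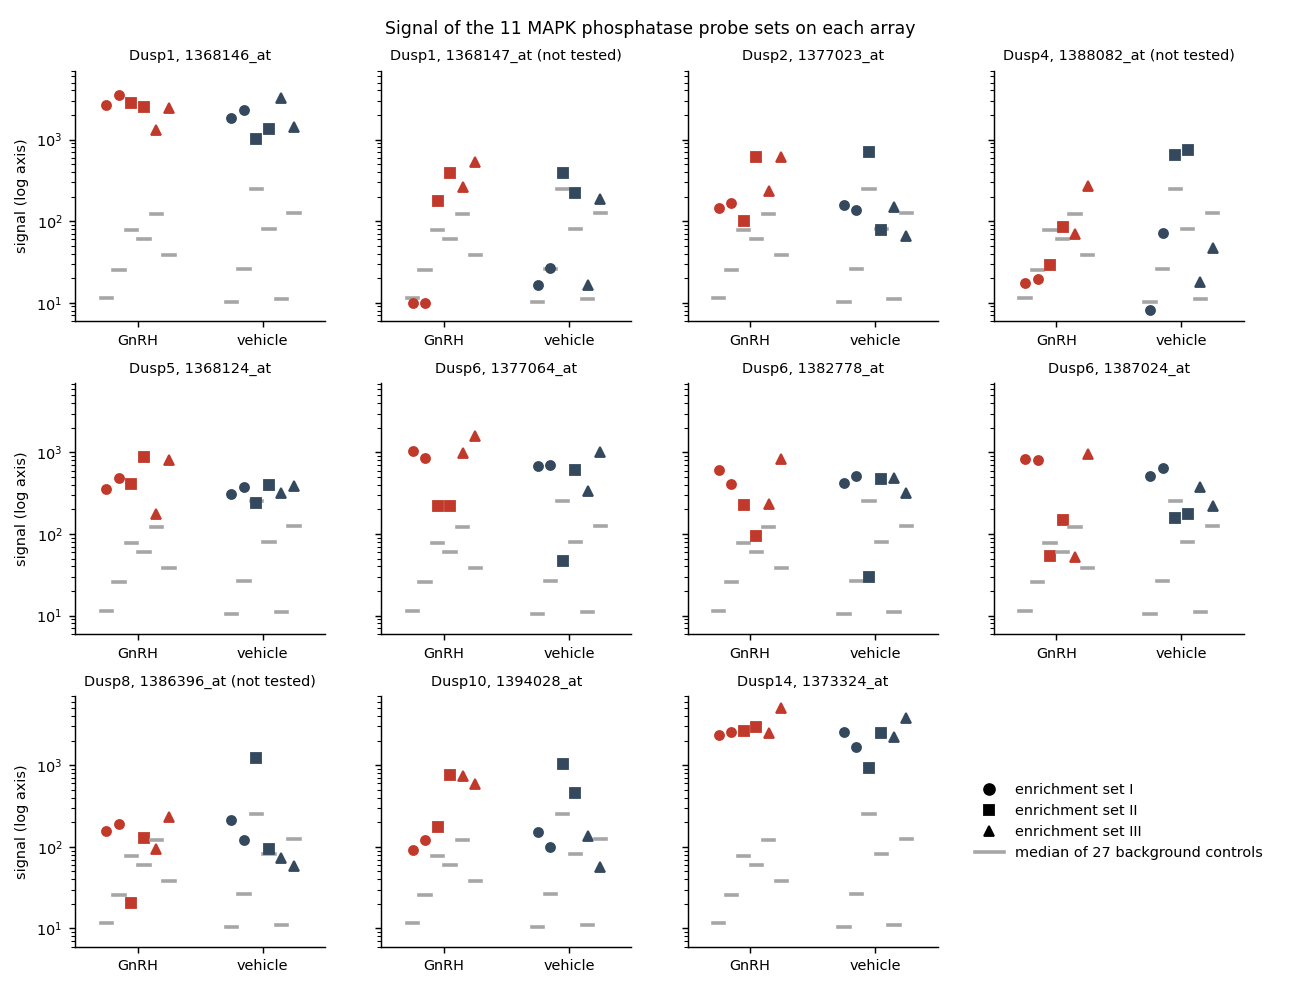
Scaled signal (log axis) of the 11 probe sets on each of the 12 arrays, GnRH in red and vehicle in dark blue, with symbols for the enrichment set and grey bars at the median of the 27 background controls of the same array. Dusp1 (1368146_at) and Dusp14 lie above the bars on every array, by the least on vehicle 3 (4.07 and 3.68 times), whereas Dusp4, Dusp8 and the other Dusp1 probe set lie near or below the bars on several arrays.

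Dusp1, the best known immediate early phosphatase of the family, gave strong signal on its probe set 1368146_at. In set I its signal was 2654 and 3536 in GnRH 1 and 2, against 1862 and 2298 in vehicle 1 and 2. In set II it was 2823 and 2534 in GnRH 3 and 4, against 1018 and 1338 in vehicle 3 and 4. In set III it was 1307 and 2453 in GnRH 5 and 6, against 3263 and 1443 in vehicle 5 and 6. Within sets I and II both GnRH samples exceeded both vehicle samples, and in set III the highest value was that of vehicle 5, the array whose spike-in signal was the lowest of the 12. Over the 6 arrays of each agent the log2 level averaged 11.27 ± 0.48 in GnRH and 10.78 ± 0.60 in vehicle samples (SD, n = 6 each), and the 2 ranges overlapped.

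The Dusp1 difference was 0.49 ± 0.30 (log2, SE), a 1.41-fold higher mean with a 95% interval of 0.905 to 2.18 (limma adjusted p = 0.981). The exact within-set permutation p was 0.167 (two-sided, n = 6 per group; 1 after adjustment over all probe sets), where the smallest possible p is 0.00926. By set it was 0.56, 1.18 and -0.28. GnRH was higher in 27 of 36 GnRH-vehicle pairs. With the spike-in level of each array as a covariate the difference was 0.74 (limma adjusted p = 0.648), without vehicle 5 it was 0.73 (adjusted p = 0.892), and the lowest value with 1 array left out was 0.36, without vehicle 3 (adjusted p = 0.985).

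The other Dusp1 probe set, 1368147_at, did not follow the first. Its signal was 9.84 to 26.5 on the 5 arrays with low spike-in level and 179 to 525 on the 7 others, where the highest value, 525, was on GnRH 6, the array with the lowest median background of those 7. It exceeded the median background control on 10 and every background control on 2 of 12 arrays, lay under the filter on dim probe sets and was not tested. Its difference was 0.54 (-0.01 without vehicle 5), and the correlation of the 2 Dusp1 probe sets over 12 arrays, less the mean of each set, was -0.42 (Pearson; Spearman -0.47).

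Dusp2, a nuclear phosphatase first known from activated lymphocytes, was dim and exceeded the median background control on 10 of 12 arrays. Its signal ran from 102 to 607 with a median of 200 in GnRH samples, and from 66.4 to 697 with a median of 144 in vehicle samples. The lowest vehicle values were those of vehicle 6 and 4 and the highest was that of vehicle 3, so the groups overlapped. The difference was 0.63 ± 0.62 (log2, SE; limma adjusted p = 0.981). By set it was 0.06, 0.07 and 1.75, and in set III 234 and 607 in GnRH 5 and 6 stood against 150 and 66.4 in vehicle 5 and 6. Leaving out single arrays moved it between 0.32, without GnRH 6, and 1.06, without vehicle 3.

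Dusp4, a nuclear phosphatase close in sequence to Dusp1, was under the filter. Its signal was 17.6 to 273 in GnRH samples, against 8.22 to 751 in vehicle samples, and it exceeded the median background control on 7 of 12 arrays. In set II it was 29.3 and 85.4 in GnRH 3 and 4, against 656 and 751 in vehicle 3 and 4. In set III it was 70.4 and 273 in GnRH 5 and 6, against 17.8 and 47.2 in vehicle 5 and 6. The sets thus went opposite ways, with differences of -3.40 and 1.77, and in a fit without the filter the overall difference was -0.68 ± 0.73 (log2, SE; limma adjusted p = 1.00).

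Dusp5, the nuclear ERK phosphatase whose promoter holds the pair of CArG boxes, had a mean higher in GnRH in each set. Its signal was 359 and 487 in GnRH 1 and 2, against 313 and 377 in vehicle 1 and 2. In set II it was 414 and 870 in GnRH 3 and 4, against 241 and 398 in vehicle 3 and 4. In set III it was 178 and 817 in GnRH 5 and 6, against 317 and 391 in vehicle 5 and 6. GnRH samples held both the lowest value and the 4 highest. Their spread was also the wider, with an SD of 0.81 in GnRH and 0.26 in vehicle samples on the log2 scale (n = 6 each). The difference was 0.44 ± 0.42 (log2, SE; 1.36-fold, interval 0.728 to 2.53; limma adjusted p = 0.981), with 0.27, 0.92 and 0.13 by set.

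Dusp6, the cytoplasmic ERK phosphatase, was read by 3 tested probe sets that gave different answers. For 1377064_at the signal was 1029 and 860 in GnRH 1 and 2, against 678 and 694 in vehicle 1 and 2. In set II it was 223 and 220 in GnRH 3 and 4, against 47.0 and 613 in vehicle 3 and 4. In set III it was 993 and 1574 in GnRH 5 and 6, against 340 and 1011 in vehicle 5 and 6. In set II both GnRH samples and vehicle 3 were low while vehicle 4 was not, and set I alone separated the agents.

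The Dusp6 difference was 0.59 ± 0.48 by 1377064_at, 0.13 ± 0.55 by 1382778_at and -0.18 ± 0.57 by 1387024_at (log2, SE, n = 6 per group). The limma adjusted p was 0.981, 0.999 and 0.998 in that order. By set, 1377064_at gave 0.45, 0.26 and 1.07, 1382778_at gave 0.09, 0.14 and 0.16, and 1387024_at gave 0.48, -0.76 and -0.25. The mean of all 3 probe sets gave 0.18. Over the 12 arrays, less the mean of each set, the first pair correlated at 0.73 (Pearson; Spearman 0.53). The other pairs correlated at 0.34 and 0.08 (Spearman 0.39 and 0.10). The geometric mean signal of 1387024_at was 157 on the 7 arrays with high and 612 on the 5 with low spike-in level, 4 of which are set I, yet its highest value, 948, was on GnRH 6, an array with high spike-in level. It exceeded the median background control on 9 of 12 arrays, and 1377064_at and 1382778_at did so on 11.

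Among the JNK and p38 phosphatases, Dusp10 was tested and Dusp8 was not. Dusp10 signal was 92.8 to 751 in GnRH samples with a median of 383, against 56.6 to 1025 with a median of 144 in vehicle samples. In set III it was 748 and 591 in GnRH 5 and 6, against 138 and 56.6 in vehicle 5 and 6, whereas in set II the highest value was that of vehicle 3. The difference was 0.54 ± 0.61 (log2, SE; limma adjusted p = 0.981), made of -0.19, -0.88 and 2.69 by set. Arrays with a high spike-in level read it 3.15-fold higher than those with a low one. In set III only vehicle 5 had a low level, yet the lowest Dusp10 signal, 56.6, was on vehicle 6, an array with a high one. With the spike-in level as a covariate the difference was 0.22 (limma adjusted p = 0.934). The cause of the set III difference was not tested. Dusp8 signal was 20.6 to 231 in GnRH samples, against 57.6 to 1228 in vehicle samples, where 1228 was vehicle 3 and the next highest vehicle value was 217. The Dusp8 difference was -0.41 ± 0.71 in a fit without the filter (log2, SE; limma adjusted p = 1.00), and 0.27 without vehicle 3.

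Dusp14 gave strong signal on all 12 arrays, above every background control. In set I it was 2356 and 2545 in GnRH 1 and 2, against 2558 and 1657 in vehicle 1 and 2. In set II it was 2604 and 2938 in GnRH 3 and 4, against 922 and 2519 in vehicle 3 and 4. In set III it was 2514 and 5078 in GnRH 5 and 6, against 2227 and 3826 in vehicle 5 and 6. The mean was higher in GnRH in each set, by 0.25, 0.85 and 0.29, with overlap in sets I and III. The difference was 0.46 ± 0.29 (log2, SE; 1.38-fold, interval 0.895 to 2.12; limma adjusted p = 0.981), with an exact within-set permutation p of 0.157 (two-sided, n = 6 per group). It was 0.24 without vehicle 3, whose signal was the lowest.

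**Figure D2:**
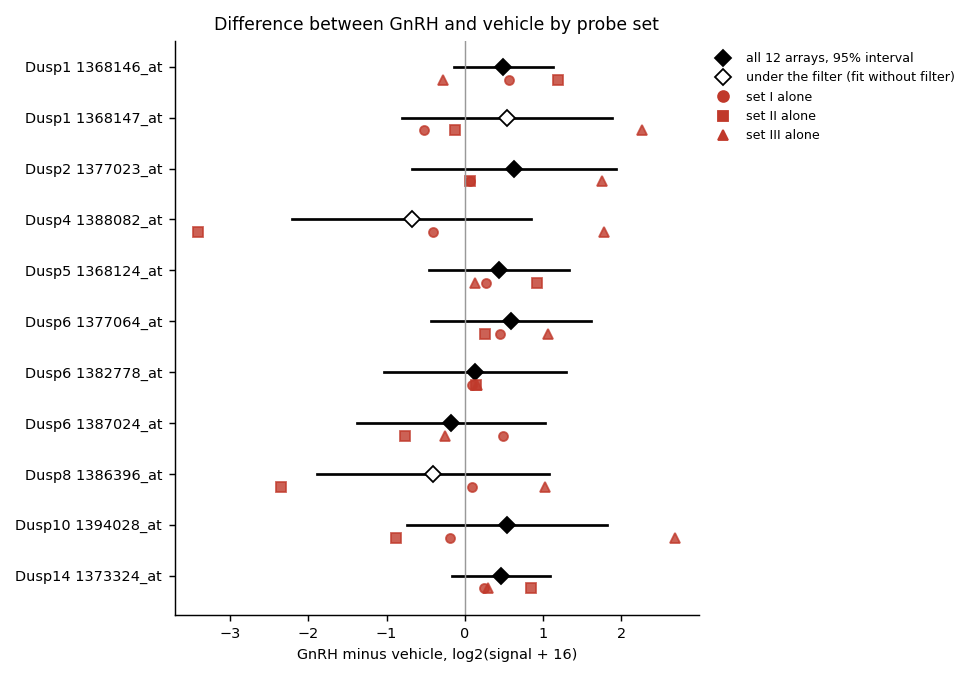
GnRH minus vehicle difference in log2(signal + 16) for each probe set: diamonds are the estimate over 12 arrays with its 95% interval (limma; open where the probe set was under the filter and the fit without a filter is shown), and red symbols are the difference within each enrichment set. All 11 intervals include 0, and the set differences of both Dusp1 probe sets, Dusp4, Dusp6 (1387024_at), Dusp8 and Dusp10 lie on both sides of it.

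Only Dusp1 and Dusp14 exceeded every background control on all 12 arrays, 2 of 11 member probe sets, as did 9.16% of all probe sets that were not controls. Of the 8 tested probe sets, 5 had a higher GnRH mean in each of the 3 sets, namely Dusp2, Dusp5, Dusp14 and 2 of Dusp6, against 12.6% of all tested. In 0 of 11 did every GnRH sample exceed every vehicle sample, against 0.0537% of all tested. The members and the direction were known from earlier results of these data when the genes were chosen, so these counts are descriptions. Averaged over the 6 tested genes, the log2 level was 8.99 to 10.41 in GnRH and 8.90 to 9.19 in vehicle samples. GnRH samples, 5 of 6, were above every vehicle sample on that mean, and GnRH 3 was not. The margin was small, with GnRH 1 at 9.21 and vehicle 4 at 9.19. That mean leaves out Dusp4 and Dusp8, whose means were lower in GnRH, and takes Dusp6 by the largest of its 3 differences. How often other groups of genes give such a mean was not computed.

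The study's text calls a gene up by a fold of 1.50 or more that is also met by 50% or more of the pairs of samples. Applied to the deposited signals plus 16, that criterion took 1 of the 11 member probe sets, Dusp2, against 7.62% of all tested probe sets, and none as down by the mirrored rule. Dusp2 met it narrowly, at 1.55-fold with 50% of pairs. Dusp6 by 1377064_at was 1.51-fold with 47.2% of pairs, and Dusp1 was 1.41-fold with 50%. In the other direction Dusp4 was 0.623-fold, with 47.2% of pairs past the mirrored fold. The change calls of the authors' software were not recomputed.

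Responses and levels were also compared between the preparations. A response that differed between the sets passed in 0 of 8 tested member probe sets (limma interaction test), as in 0% of all 18625. At an unadjusted p under 0.05 it was 1 of 8, Dusp10 (adjusted p = 0.917 by limma), against 5.36% of all. Levels between the sets passed in 0 of 8 members, against 6.02% of all tested probe sets. At an unadjusted p under 0.05 it was 4 of 8, the 3 of Dusp6 and Dusp10, against 27.8% of all. Dusp6 by 1377064_at averaged 9.68, 7.76 and 9.77 in sets I, II and III (log2 level; limma adjusted p = 0.0630). Fits to a single set gave 0 probe sets with a limma adjusted p under 0.05, while 690 (set I), 808 (set II) or 494 (set III) were under 0.05 unadjusted. The only members among those were Dusp1 in set II and Dusp10 in set III.

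The sizes depended on which arrays were used, among them vehicle 3 and vehicle 5, the arrays with the highest and the lowest spike-in signal. With both left out, a setting chosen after seeing the data, 5 of the 6 genes kept a higher GnRH mean. Dusp6 was then at -0.12, Dusp14 was 0.12 and Dusp5 0.28, while Dusp1 was 0.61, Dusp10 0.75 and Dusp2 1.11 (log2 differences; limma adjusted p from 0.923 to 0.973). With single arrays left out, all 6 differences stayed above 0, the lowest being 0.14 for Dusp10 without vehicle 6. Dusp6 was 0.22 without vehicle 3 and 1.05 without vehicle 4, and Dusp5 was 0.22 without GnRH 6 and 0.74 without GnRH 5.

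**Figure D3:**
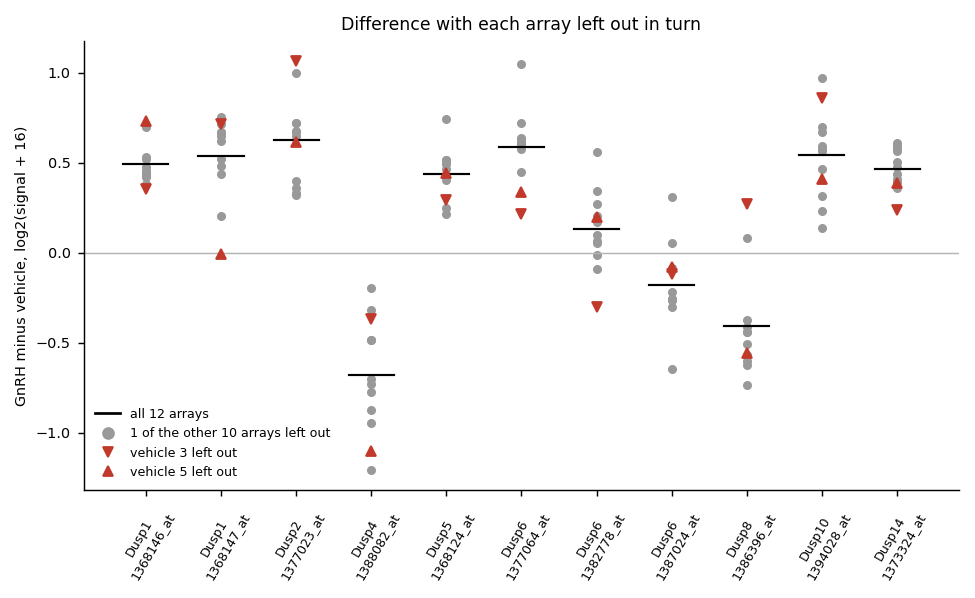
GnRH minus vehicle difference in log2(signal + 16) with each of the 12 arrays left out in turn; black bars are the value over all arrays, and red triangles mark the omission of vehicle 3 (down) and vehicle 5 (up). Dusp1 (1368146_at), Dusp2, Dusp5, Dusp6 (1377064_at), Dusp10 and Dusp14 stay above 0, Dusp4 stays below, and the other probe sets of Dusp1 and Dusp6 and that of Dusp8 cross it.

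Other genes of the pathway, on lists given by role, were read from the same fit. Of 16 tested kinases of the MAPK cascade, 0 passed in either direction. In that list 7 had a higher GnRH mean and the median log2 difference was -0.06. Those with the smallest p were Mapk11, a p38 kinase, at 1.19 ± 0.62, Mapk6, the atypical kinase ERK3, at 0.65 ± 0.35, and Map2k1, a kinase that activates ERK, at 0.55 ± 0.44 (log2, SE, n = 6 per group). Scaffolds and docking partners had 5 of 8 higher with a median of 0.10, led by the arrestin gene Arrb1 at 0.38. Kinases and factors downstream of MAPK had 6 of 14 higher with a median of -0.06, led by Rps6ka3, an ERK-activated ribosomal S6 kinase, at 1.30 ± 0.53. By set Rps6ka3 was at 0.12, 2.78 and 1.02. In both lists 0 passed.

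The immediate early genes, which MAPKs induce within minutes, had 16 of 19 higher and a median of 0.54. Of these 1 passed as higher and 0 as lower. The one was Fosb, at 2.29 ± 0.32 (log2, SE; limma adjusted p = 0.0411). That call was lost with a pseudocount of 1, quantile normalization, no set term, the set as a random block, the replicate block or no intensity trend, and when any array but vehicle 3 was left out alone. No probe set passed the exact permutation test after adjustment, but that test could not decide the question. Its smallest possible p, 0.00926, passes adjustment over 18625 probe sets only if very many share it. Fosb had this smallest exact permutation p, as did Arc and Nr4a3, each with GnRH higher in 36 of 36 pairs. By limma, Arc, at 2.58, and the nuclear receptor gene Nr4a3, at 1.09, had the next smallest p. Egr1, a zinc-finger factor and ERK target, differed by 0.77 and Fos by 0.42. In sets I, II and III, Egr1 was at 0.32, 1.61 and 0.38, and Fos at 0.63, 1.74 and -1.09. Other feedback inhibitors of receptor and MAPK signalling had 10 of 12 higher and a median of 0.48, with 0 passing. They were led by Errfi1, an inhibitor of the epidermal growth factor receptor, at 0.86, the Ras GTPase activator gene Nf1 at 1.56 and Rgs4 at 0.65. In sets I, II and III, Errfi1 was at 0.61, 0.93 and 1.04, Nf1 at 0.16, 2.59 and 1.94, and Rgs4 at 0.37, 1.38 and 0.21.

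Of the atypical and remaining dual-specificity phosphatases, 6 of 13 tested genes were higher, against 54.6% of all tested genes. Their median was -0.12, against 0.04 for all tested genes. In this list 0 of 13 were higher in each set, against 12.3% of all tested genes. Those with the smallest p were Dusp11, an RNA phosphatase, at 0.59 ± 0.35, Dusp19 at -0.69 ± 0.42 and Dusp23 at 0.52 ± 0.49 (log2, SE). Tyrosine and serine/threonine phosphatases that act on MAPKs had 7 of 8 higher, with a median of 0.25 and 0 passing. Ppm1d, a phosphatase of the p38 pathway, was at 1.36 ± 0.56, and the catalytic subunit genes of protein phosphatase 2A, Ppp2cb and Ppp2ca, were at 0.40 and 0.71. In sets I, II and III, Ppm1d was at 0.06, 2.76 and 1.26, Ppp2cb at 0.32, 0.81 and 0.07, and Ppp2ca at -0.14, 2.34 and -0.06. No test compared these lists with the members. Members and lists were chosen with earlier results of these data known, so the contrast between them is a description only.

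**Figure D4:**
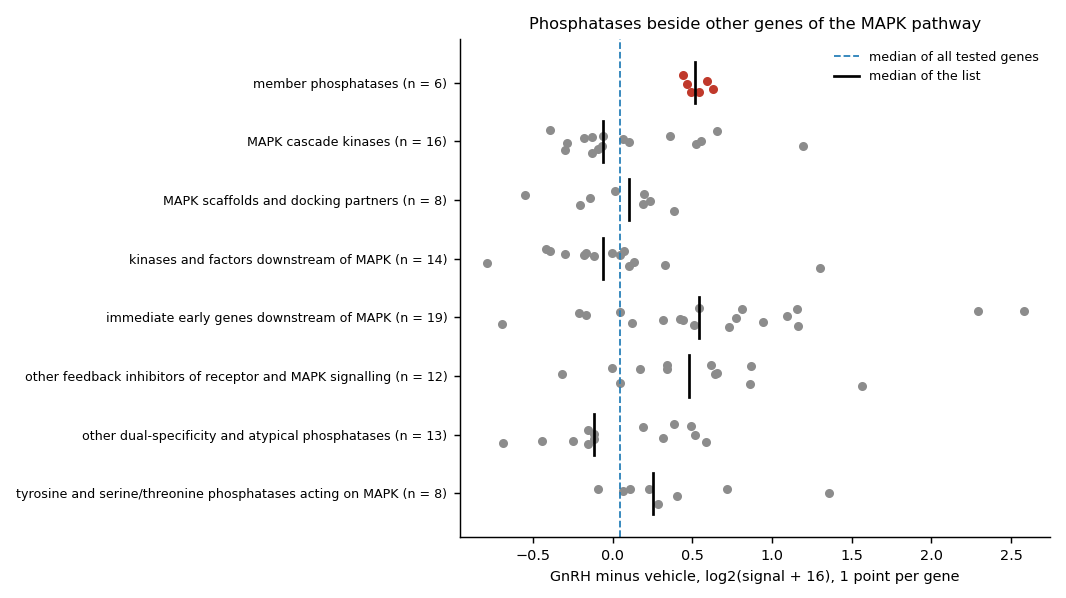
GnRH minus vehicle difference in log2(signal + 16) for each tested gene (1 point per gene, brightest probe set) of the members, in red, and of 7 other lists of the MAPK pathway, with black bars at list medians and a dashed line at the median of all tested genes, 0.04. The 6 member genes lie between 0.44 and 0.63, and the immediate early list reaches 2.58. Dusp6 is shown by its brightest probe set, and the mean of all its probe sets was 0.18.

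Dusp1 and Dusp14 were the members with the smallest p, and the genes most like each were sought by Pearson correlation over the 12 arrays after removing set means, among 10679 other genes. For Dusp1 these were Zcchc12, Rtn4, Pgrmc1, Ccng1 and Tbl1xr1, at 0.96 to 0.94 (Spearman 0.91 to 0.95). For Dusp14 they were Ppp2cb, Rab5if, Prnp, Rcn1 and Pgam1, at 0.96 to 0.94 (Spearman 0.88 to 0.96). Their own GnRH minus vehicle log2 differences were 0.25 to 0.49 for the Dusp1 group and 0.40 to 0.85 for the Dusp14 group. None of the 10 is an immediate early gene of the list used here. The points share arrays, scaling and spike-in level, so the ranking is a description with no test.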

How the data were processed

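RNA was amplified in 2 rounds with T7 polymerase, per the labels' protocols, and hybridised to Affymetrix whole-genome rat arrays, 12 in all and 1 per sample. The authors' deposited values are probe set intensities computed with GCOS, per the submitters' processing notes, its version not given in the sources used here. After trimming 2% at each end, array means lay at 497 to 499, and each was rescaled here to 500. Probe sets with a mean log2(signal + 16) at or above the 40th percentile were tested (18625 of 31042) in limma 3.58.1 under R 4.3.3. The model held enrichment set and agent, with an intensity trend and Benjamini-Hochberg adjustment at 0.05 over all tested probe sets. Exact permutation used the 216 relabellings within sets. The limma steps were run on simulated data to check the code. That run is not used here as evidence on the power to find differences of the members' size. Alternatives changed the pseudocount, filter, normalization, set term, replicate block, spike-in covariate, intensity trend and probe set summary, and left out arrays.

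The platform annotation gave 1 symbol to 20826 probe sets, of which 20758 matched RefSeq's GRCr8 gene table by Entrez identifier and 0 changed symbol. Besides cell type markers, named genes are all members, up to 3 genes with the smallest p per list, Fos, Fosb and Egr1, and the 5 genes most like each of 2 members. Members and lists were chosen with earlier results of these data known. The labels call the samples biological replicates and do not say whether the 2 of an agent in a preparation were separate cultures, so p-values measure the spread between these samples, which may be technical. The number of arrays limits the precision. No 2 arrays held identical values.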

Additional observations from a re-analysis of the deposited data

Results flagged for a closer look

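Of 22 groups of 6 values (11 probe sets by agent), 4 had an extreme array whose gap exceeded Dixon's critical value, which chance gives in about 5% of groups. These were the Dusp1 signal of 1307 in GnRH 5 (1368146_at), the Dusp14 signal of 5078 in GnRH 6, the Dusp2 signal of 697 in vehicle 3 and the Dusp6 signal of 29.5 in vehicle 3 (1382778_at). Vehicle 3 is the array with the highest spike-in signal and the lowest correlation with the rest.

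In 3 of the 11 probe sets, every GnRH sample of one enrichment set lay above the vehicle samples while every GnRH sample of another lay below them. The share of all probe sets with this pattern was not computed. Each set holds only 2 arrays of each agent, so the count is a description. For Dusp1 by 1368147_at the log2 differences were -0.52 in set I and 2.26 in set III. For Dusp6 by 1387024_at they were 0.48 in set I and -0.76 in set II, where the interaction test over all sets did not pass (limma adjusted p = 0.986). For Dusp4 they were -3.40 in set II and 1.77 in set III. The difference between sets was not tested for Dusp4 and for that Dusp1 probe set, which lay under the filter. Both were above every background control on 1 and 2 of 12 arrays, in that order.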

How the results depend on the processing

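Over 23 alternatives, the differences of the 6 tested member genes kept their direction in 137 of 138 cases. Of these, 30 could not have moved, since no filter, no set term, the random set block, the replicate block and no intensity trend leave the estimate as it is in this balanced design. The mean of all probe sets of a gene likewise could not move Dusp2, Dusp5, Dusp10 or Dusp14, which have 1 probe set each. The exception was Dusp6, at -0.12 with vehicle 3 and vehicle 5 both left out, a setting added after seeing the data; the cause was not tested. No member probe set passed under any alternative that gave calls (limma adjusted p of 0.648 or more). An unadjusted p under 0.05 was reached by 1 member probe set with the spike-in covariate, without GnRH 5, vehicle 4 or vehicle 5, and with vehicle 3 and 5 both left out. The number of all probe sets called, 1 in the main analysis, was 0 with a pseudocount of 1, quantile normalization, no set term, the set as a random block, no intensity trend or the replicate block, with 627, 657, 333, 580, 737 and 502 at an unadjusted p under 0.05. With each array left out in turn it was 0 to 1, and 1 only without vehicle 3. The replicate block rests on numbers alone: same-numbered samples' deviations from the agent means correlated at -0.22 to 0.65, and within sets at -0.14 to -0.03. It left 0 members called and 6 of 6 genes higher. The median difference of all tested probe sets stayed between -0.02 and 0.06 in these settings. No change was detected in any member, the bright Dusp1 and Dusp14 included. In the dim members, signal over background also limits the size of any fold.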
